A study of Mus musculus with 6 samples.

Results

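The deposited list of Jun peaks in rib chondrocytes of newborn mice was read at 3 collagen genes that mark bone, perichondrium and fibroblasts: Col1a1, Col1a2 and Col3a1. A peak was counted where its midpoint lay inside a fixed window on the mouse build mm9. The windows were chr11:94760001-94850000 for Col1a1, chr6:4420001-4530000 for Col1a2 and chr1:45330001-45420000 for Col3a1. They held 28 of the 99162 peaks in the list, 0.0282% of the total. The Col1a1 window held 16 peaks, the Col1a2 window 5 and the Col3a1 window 7. The gene names come with the windows. Gene positions on mm9 were not used here, so a peak is given by its position in a window and not as lying in a promoter, exon or intron.

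The series has 6 samples from mouse rib cartilage. The list was taken to be that of its 1 Jun ChIP-seq library, made from untreated wild-type ICR chondrocytes at postnatal day 1, beside which 1 library of input DNA was prepared from the same kind of cells. The cells were enzyme-digested rib chondrocytes used at once, and 20000000 of them went into the precipitation. A further 4 RNA-seq libraries, of sorted Col10a1mCherry rib chondrocytes from Swiss Webster mice before and after birth, were not analysed here. The study asked how AP-1 factors act together with Sox9 as chondrocytes become hypertrophic. How many reads the list rests on is unknown, and a second Jun library was not described. No value below therefore has a replicate check, and no test between conditions could be made. The cartilage identity of the cells could not be checked against marker genes, because the list holds no expression values.

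Col1a1 and Col1a2 encode the chains of type I collagen, the main fibre of bone, tendon and skin, made in quantity by osteoblasts and fibroblasts. Col3a1 encodes type III collagen, which forms fibres with type I in skin, vessels and other soft tissues and in the perichondrium, the sheath around cartilage. Chondrocytes make type II collagen as their main fibre, and hypertrophic chondrocytes type X. The 3 genes are thus a contrast to the cartilage genes that the study was about. Jun is a subunit of AP-1, a dimer with Fos, other Jun or related proteins. Its DNA motif was searched for as TGANTCA, a loose form with the middle base left free (N stands for any base). Some dimers bind TGACGTCA, which was searched for too.

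Of the 3 genes, Col1a2 and Col3a1 have a promoter entry in the RefSeq table of build GRCm38.p6, a later build than that of the peaks, and Col1a1 was not matched. The 250 bases before each start are shown because they are where an AP-1 motif next to the gene would be read; the sequence under the peaks was not read, and whether a peak covers these bases was not determined. They lie on the plus strand, at chr6:4505368-4505617 for Col1a2 and at chr1:45311288-45311537 for Col3a1 in GRCm38.p6, positions that cannot be set against the mm9 windows. Capitals mark the stretches that differ from TGANTCA at 1 base.
Col1a2: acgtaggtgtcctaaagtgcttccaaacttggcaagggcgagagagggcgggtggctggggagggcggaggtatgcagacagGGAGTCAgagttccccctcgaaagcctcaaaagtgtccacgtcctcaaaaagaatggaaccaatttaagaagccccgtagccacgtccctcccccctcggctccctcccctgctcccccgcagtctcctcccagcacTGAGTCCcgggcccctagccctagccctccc
Col3a1: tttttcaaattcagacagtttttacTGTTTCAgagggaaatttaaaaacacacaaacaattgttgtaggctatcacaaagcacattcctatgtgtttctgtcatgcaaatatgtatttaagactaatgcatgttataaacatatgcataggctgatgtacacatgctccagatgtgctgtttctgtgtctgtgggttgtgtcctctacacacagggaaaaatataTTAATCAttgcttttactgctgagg

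Neither stretch contained TGANTCA or TGACGTCA. Both motifs read the same on the opposite strand, so the search covered both strands, and they do not overlap here since neither occurred. Among all 32851 promoters of the table, 6.75% held TGANTCA and 1.55% held TGACGTCA in the same 250 bases. Each of the 2 promoters held 2 stretches with 1 differing base. In Col1a2 these were GGAGTCA (T1G, counted from the first base of the motif), 168 to 162 bases before the start, and TGAGTCC (A7C), 31 to 25 bases before it. In Col3a1 they were TGTTTCA (A3T), starting 225 bases before the start of the gene, and TTAATCA (G2T), 25 to 19 bases before it. The free middle base was G in both Col1a2 stretches, and T and A in those of Col3a1. Stretches with at most 1 differing base were found in 63.2% of all promoters. The Col1a2 bases were rich in G and C, 62.0%, and the Col3a1 bases poor in them, 35.2%, on either side of the median of 52.4% over all promoters.

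The Col1a1 window was the densest of the 3. Its 16 peaks in 90 kb made 177.8 peaks per Mb, with an exact Poisson 95% interval of 101.6 to 288.7, against 40.74 per Mb over the autosomes, a ratio of 4.36. The Col3a1 window, also 90 kb long, had 77.8 peaks per Mb (31.3 to 160.3), 1.91 times the autosomal density. The Col1a2 window, of 110 kb, had 45.5 per Mb (14.8 to 106.1), 1.12 times that density. These intervals cover counting error only and are too narrow for peaks that lie in groups. That of Col1a1 lay above the autosomal density, while those of Col3a1 and Col1a2 included it. The ratios changed with the widths counted, on both sides of the ratio. With peaks of 50 bp or more they were 4.075 at Col1a1, 1.455 at Col3a1 and 1.191 at Col1a2. A cut at 100 bp, planned for the counts, was applied to the ratios only after seeing the data. It gave 2.55 at Col1a1 (0.934 to 5.54), with 6 peaks left. It gave 0.848 at Col3a1 (0.103 to 3.06) and 0.694 at Col1a2 (0.0841 to 2.51), with 2 peaks left at each. At that cut all 3 intervals included a ratio of 1, and Col3a1 and Col1a2 were below it. Whether this follows from width or from the smaller counts was not tested.

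Among the 3 genes, the density at Col1a1 was 3.91 times that at Col1a2 and 2.29 times that at Col3a1, and the density at Col3a1 was 1.71 times that at Col1a2. The intervals of each pair overlapped, for Col1a1 and Col1a2 only between 101.6 and 106.1 peaks per Mb. Overlap does not show that densities are equal, and the differences between the genes were not tested. Together the 3 windows held 96.5 peaks per Mb (64.2 to 139.5), 2.37 times the autosomal density, and 16 of the 28 peaks in that sum were at Col1a1. With peaks of 100 bp or more the ratio was 1.32 (0.631 to 2.42).

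Set beside all autosomal windows of the same length, taken every 10 kb, Col1a1 stood highest of the 3 and Col1a2 lowest, though above the median. As many peaks as Col1a1 or more were found in 3.59% of windows of 90 kb, and as many as Col3a1 or more in 20.3% of them. For Col1a2 the share was 34.8% of windows of 110 kb. The median window held 2 peaks at either length, and 36.3% of windows of 90 kb and 33.1% of those of 110 kb held none. All 3 collagen windows were therefore fuller than the median window, a median that takes in the empty ones. Among only the windows that held a peak, 5.63% had as many as Col1a1 or more. That share was 31.83% for Col3a1 and 51.97% for Col1a2, so Col1a2 stood near the middle of them. The fullest windows were far above them, with 106 peaks in 90 kb and 120 in 110 kb.

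**Figure D1:**
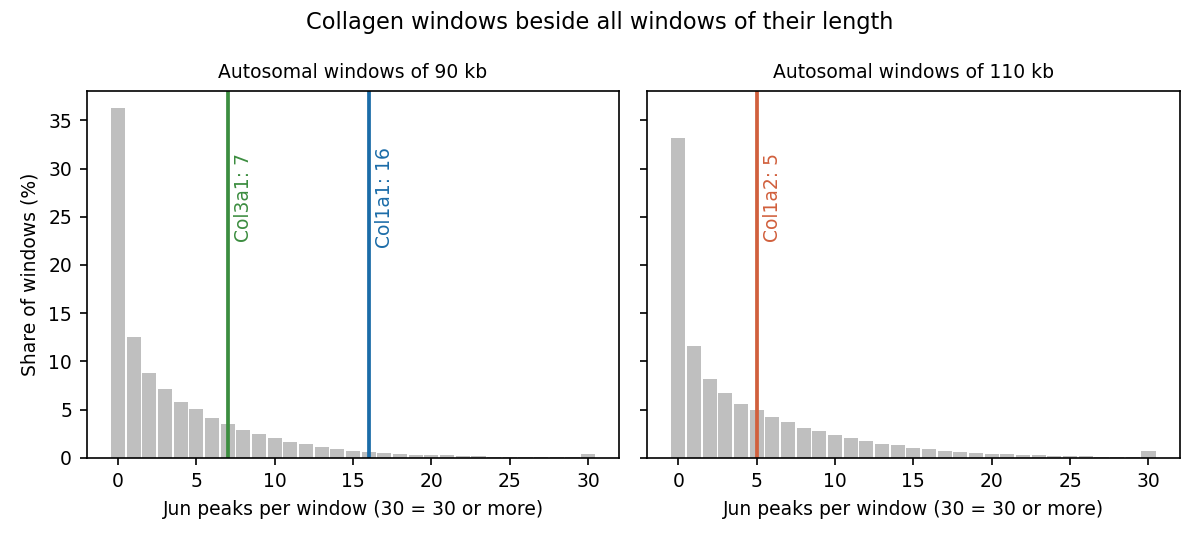
Share of autosomal windows (y axis, %) by their number of Jun peaks (x axis, with 30 standing for 30 or more), for windows of 90 kb on the left and of 110 kb on the right. The coloured lines mark Col1a1 with 16 peaks, in the upper tail, Col3a1 with 7 and Col1a2 with 5. Windows without a peak are the tallest bar in each panel.

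Chromosome 11 as a whole was denser than the chromosomes of the other two genes. It had 57.7 peaks per Mb, against 36.9 on chromosome 6 and 36.1 on chromosome 1. Relative to its own chromosome the Col1a1 window was 3.08 times as dense, the Col3a1 window 2.15 times and the Col1a2 window 1.23 times. On chromosome 11, 6.82% of windows of 90 kb held as many peaks as Col1a1 or more. The share on chromosome 1 for Col3a1 was 17.6%, and on chromosome 6 for Col1a2 31.4%.

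The surroundings of the 3 genes differed too. Each window was set beside the 5 windows of its length on either side. Around Col1a1 these 10 windows held 1 to 13 peaks with a median of 10, and all 10 held fewer than the 16 of the Col1a1 window. Around Col3a1 they held 0 to 6 with a median of 2.5, and all 10 held fewer than 7. Around Col1a2 they held 0 to 9 with a median of 3, and 4 of the 10 held more than 5. The counts are small: the 95% counting interval of Col1a1, 9.15 to 26.0 peaks, included the 13 of its fullest neighbour, and that of Col3a1, 2.81 to 14.4, the 6 of its own. The Col1a1 surroundings were also uneven, with 2 and 1 peaks in the windows next below it and 12 and 13 in the windows next above it.

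**Figure D2:**
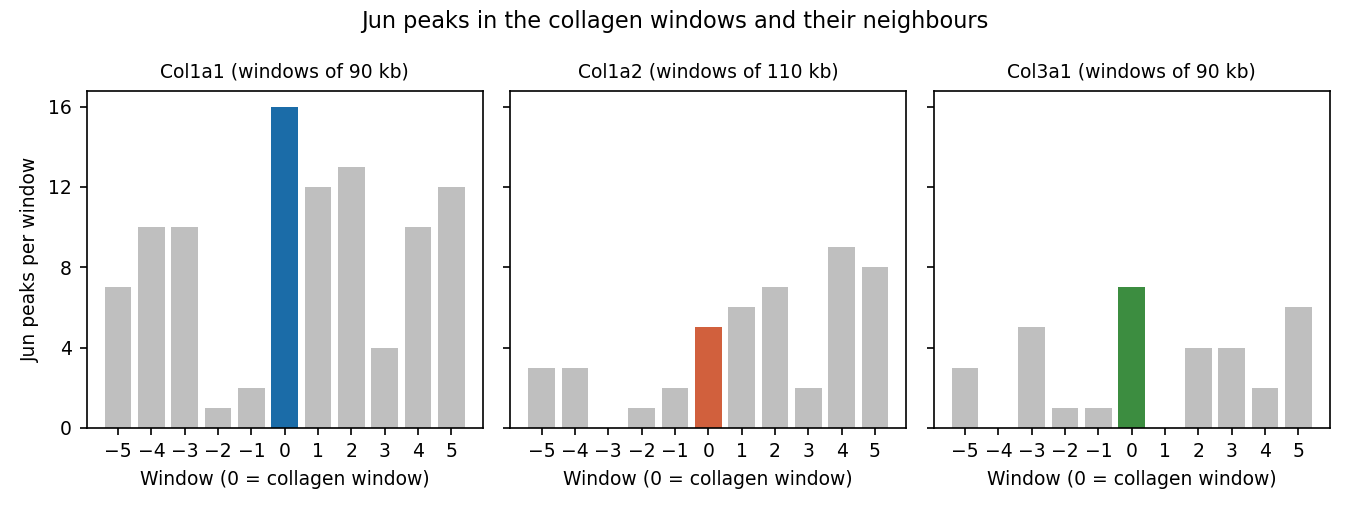
Number of Jun peaks (y axis) in each collagen window, coloured and numbered 0 on the x axis, and in the 5 windows of equal length on either side in grey, with positions increasing to the right. The Col1a1 and Col3a1 windows are the tallest bar of their panel, while 4 windows above Col1a2 are taller than its own.

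The genes listed next to each collagen gene in the RefSeq table give its neighbourhood by name. The protein-coding gene after Col1a1 is Sgca, which encodes a sarcoglycan of muscle membranes, followed by Hils1 and Ppp1r9b. Listed before Col1a1 are AA623943, Gm11543 and Gm11544. Col1a2 stands between Bet1, a protein of vesicle transport, and Casd1, followed by Sgce, another sarcoglycan, and the imprinted gene Peg10. Col3a1 is followed by Col5a2, a chain of type V collagen that joins type I collagen fibres, and preceded by Gulp1. A peak in a window may therefore lie nearer to one of these genes than to the collagen gene, and which of them it lies near was not determined.

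In the Col1a1 window the peaks fell into 2 groups of 8 with an empty stretch between them. The lower group ran from 94775094 to 94798537 over 23.4 kb. It contained the densest 10 kb of the window, with 5 peaks between 94781690 and 94790302. Among them, the peak at 94782396 to 94782578 was 183 bp wide and the peak at 94790122 to 94790302 was 181 bp wide. The closest pair, at 94789007 to 94789057 and 94789433 to 94789525, had centres 447 bp apart. The last peak of this group, at 94798495 to 94798537, was 43 bp wide and stood 8304 bp from the peak before it.

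The next 18.0 kb, from 94798538 to 94816505, held no peak. The upper group began at 94816506 and held the widest peak of the 3 windows, 477 bp from 94819021 to 94819497. Wider peaks made up 0.603% of the whole list, 598 peaks. It also held the narrowest of the 28, the 27 bp interval from 94831708 to 94831734. The group did not end with the window: chained by centres within 10 kb, it went on to 94865758 and counted 16 peaks, 8 of them outside. The first peak beyond the edge lay 0.242 kb from it, and a window wider by 10 kb on each side held 22 peaks in place of 16. In the whole window, 15 of 16 peaks (93.8%) had the next centre within 10 kb, against 61.3% of all peaks. The share was 2 of 5 (40.0%) at Col1a2 and 3 of 7 (42.9%) at Col3a1, both lower than over all peaks. A window with more peaks has shorter distances by construction.

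In the Col1a2 window there were 2 close pairs and a lone peak. The first pair lay at 4433721 to 4433853 (133 bp) and 4434051 to 4434137 (87 bp), with centres 307 bp apart, the closest in the 3 windows. The second pair lay at 4456306 to 4456460, the widest peak of the window with 155 bp, and 4457475 to 4457573 (99 bp), 1141 bp apart. After 37.2 kb without a peak, from 4457574 to 4494766, came the peak of 94 bp at 4494767 to 4494860, with no other centre within 10 kb. Of the 11 tiles of 10 kb in this window, 3 held a peak, while 7 of 9 did at Col1a1 and 4 of 9 at Col3a1. Over the 3 windows 14 of 29 tiles (48.3%) held a peak, against 22.7% of all autosomal tiles.

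In the Col3a1 window 4 of the 7 peaks lay together within 5.34 kb, from 45370005 to 45375345, close to the middle of the window. Their widths were 47, 57, 65 and 160 bp, in order of position. Below them stood the narrowest peak of the window, 45 bp at 45333011 to 45333055, and a peak of 88 bp at 45356771 to 45356858. Above them 37.5 kb were empty, from 45375346 to 45412878, which is 41.7% of the window. The last peak, at 45412879 to 45413086, was its widest with 208 bp. Distances between centres as long as the longest at Col3a1 made up 13.0% of all autosomal distances between neighbours, those as long as the longest at Col1a2 13.2%, and those as long as the longest at Col1a1 26.1%.

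**Figure D3:**
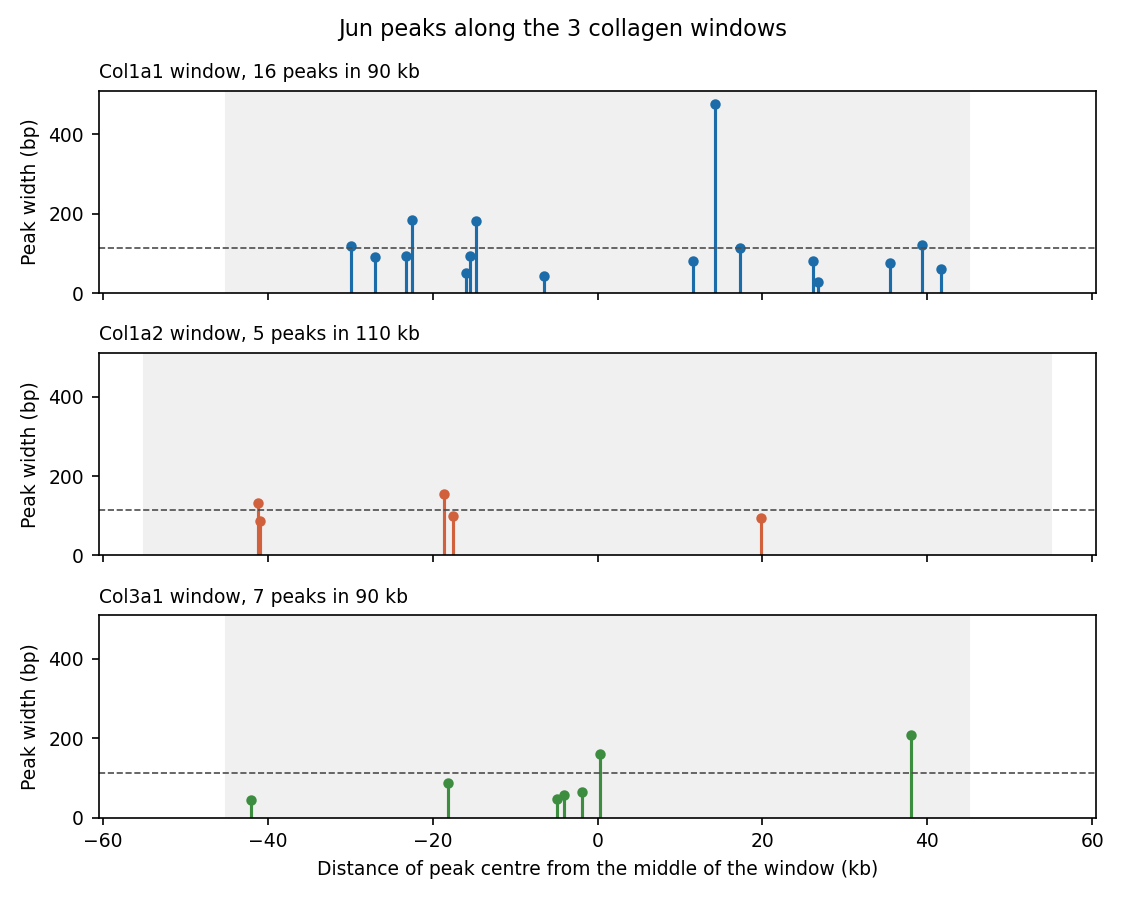
Position of each Jun peak as the distance of its centre from the middle of the window (x axis, kb) and its width (y axis, bp), one panel per gene, with the window shaded and the median width of all peaks in the list, 114 bp, dashed. Col1a1 shows 2 groups of 8 peaks around an empty 18.0 kb and the 477 bp peak, Col1a2 shows 2 pairs and a lone peak, and Col3a1 shows 4 peaks near the middle.

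Whether the longest empty stretches of the 3 windows coincide with the transcribed genes was not determined. At the edges, the nearest peak outside lay 17.7 kb below and 0.242 kb above the Col1a1 window, against 15.2 and 3.33 kb for the nearest inside. For Col1a2 the nearest outside were 37.8 kb below and 4.84 kb above, and the nearest inside 13.8 and 35.2 kb. For Col3a1 they were 3.53 kb below and 129.0 kb above outside, and 3.03 and 7.02 kb inside.

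The collagen peaks had a lower median width than the list as a whole. It was 91.5 bp, against 114 bp for all peaks, and 19 of the 28 were narrower than 114 bp. The median was 91.5 bp at Col1a1 (27 to 477 bp), 99 bp at Col1a2 (87 to 155 bp) and 65 bp at Col3a1 (45 to 208 bp). Of the 28 peaks, 10 measured 100 bp or more, against 64.3% of all peaks. Only 2 of the 28 reached 200 bp, 1 each at Col1a1 and Col3a1, against 14% of all peaks, and 4 were under 50 bp, against 6.3% of all peaks. The members are few and share 1 library, so no test stands beside these counts. The peaks covered 1892 bp or 2.1% of the Col1a1 window, 670 bp or 0.744% of the Col3a1 window and 568 bp or 0.516% of the Col1a2 window, against 0.556% of the autosomal span.

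The deposited rows do not follow the genome, and no source says what orders them. The collagen peaks were spread over it: 2 of 28 stood in the first 10% of the list, where 10% of all peaks stand by construction, 13 in the first 50% and 5 in the last 10%. The earliest was the 183 bp peak at Col1a1 from 94782396, at place 7177. The next was the 87 bp peak at Col1a2 from 4434051, at place 7565, whose partner 307 bp away stood at place 97453. The first of the Col3a1 peaks, of 57 bp from 45370968, came at place 21408. The 477 bp peak at Col1a1 stood at place 55592. The median place was 55.6% of the list at Col1a1, 44.0% at Col1a2 and 53.7% at Col3a1.

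**Figure D4:**
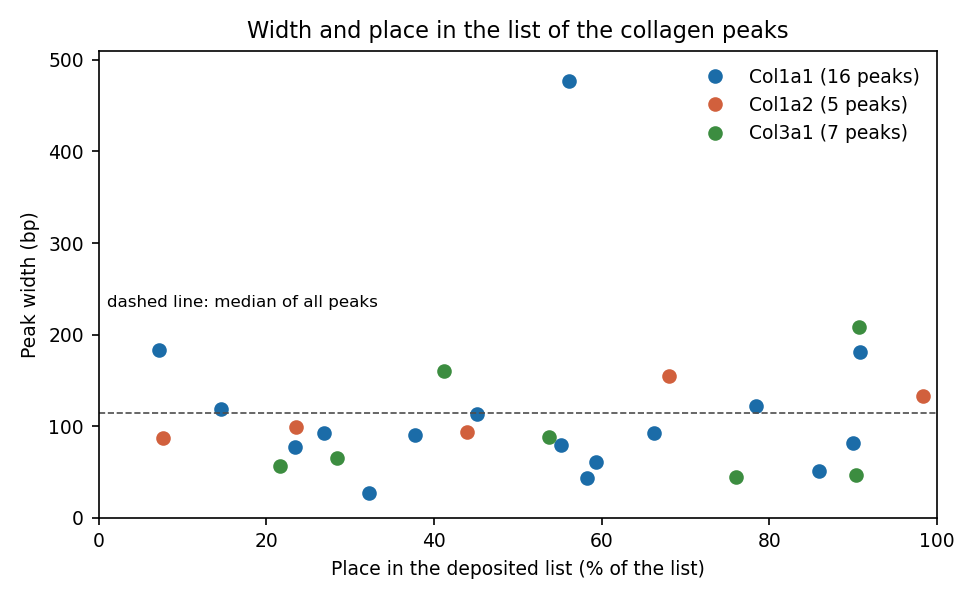
Width (y axis, bp) of each of the 28 collagen peaks against its place in the deposited list (x axis, % of the list), coloured by gene, with the median width of all peaks, 114 bp, dashed. The peaks of each gene are spread along the list, and 19 of 28 lie under the dashed line.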

How the data were processed

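Per the submitters' processing notes the authors deposited peak positions on build mm9. The deposited list gives chromosome, start and end in bp and no score, height or p-value. Not given in the sources used here are the aligner, the peak caller and the use of the input. The name of the deposited list carries the marks 2s and FDR1. What the mark 2s means, and what threshold FDR1 stands for, is not stated. Positions are printed counted from 1. The gene windows, and with them the members, were chosen with earlier results of these data known. All 28 peaks entered the counts, but not all are given by position. A rule set which to give: the widest, the narrowest and the earliest listed peak, the densest 10 kb and the longest empty stretch of each window. Densities were computed between the first and last peak centre of each of the 19 autosomes, with exact Poisson 95% intervals (scipy 1.17.1, pandas 2.3.3, numpy 2.4.6, Python 3.11.15). Windows of equal length started every 10 kb and overlap, so they describe the list and support no test. The counting was tested on simulated data with planted peaks. Placing peaks in genes, motifs under peaks and counts at other collagen genes need mm9 gene positions or sequence, which were not used here. The merging of peaks within 1000 bp, other edges, widths and distances were tried as alternatives.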

Additional observations from a re-analysis of the deposited data

How the results depend on the processing

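Of 74 alternatives over 17 results, 64 left the value within 1.5 times for counts or within its own 95% range for other values, and 10 did not. With peaks of at least 100 bp alone, 6 peaks remained at Col1a1, 2 at Col1a2, 2 at Col3a1 and 10 in all. Fewer peaks enter by construction, but the collagen windows lost more than the list, of which 64.3% passed. Density over that of the autosomes, an alternative chosen after seeing the data, was 2.55 at Col1a1, 0.848 at Col3a1, 0.694 at Col1a2 and 1.32 for the 3 windows together. The cause was not tested. The share of Col1a1 peaks with the next centre nearby was 25% within 2 kb, 68.8% within 5 kb and 100% within 50 kb, and within 50 kb it was 100% at Col1a2 and 85.7% at Col3a1, which follows from the distance used. Counting any overlap or whole peaks left 16, 5 and 7 peaks at Col1a1, Col1a2 and Col3a1. Merging within 1000 bp left 12, 4 and 6 regions. Widening the windows by 10 kb on each side gave 22, 6 and 8 peaks, and the merged Col1a1 density was 4.39 times the autosomal one. A stricter threshold could not be set without a score. No paired analysis was possible because there is 1 Jun peak list and no result comes from a test. Without read depth, an empty stretch cannot be taken as unbound.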

Other observations

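Beyond the last peak at Col3a1, which ends at 45413086, the next peak began only after 136 kb, at 45549229. Distances between neighbouring centres as long as this made up 2.55% of the autosomal ones. The window of 90 kb directly above Col3a1 held 0 peaks, while that directly above Col1a1 held 12. Col5a2 is the protein-coding gene listed after Col3a1. Whether it lies in the empty stretch was not determined.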
